A study of Saccharomyces cerevisiae with 2 samples.

Results

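The genes examined here encode the proteins of the cytosolic large (60S) ribosomal subunit of budding yeast, Saccharomyces cerevisiae. They were taken by name from the R64 gene table, as every symbol made of RPL, a number and an optional A or B, together with the stalk genes RPP0, RPP1A, RPP1B, RPP2A and RPP2B. That gave 81 genes, of which 79 had a row among the 6207 gene features of the array table, each with a single row. RPL29 and RPL36B had no row here, and 2 of the rows, those of RPL22B and RPL41B, carry an older systematic name. A value was present for 78 members in the first comparison and 79 in the second, RPL1A being the member without one in the first.

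The 60S subunit holds the peptidyl transferase centre, made of ribosomal RNA, where amino acids are joined, and the tunnel through which the new chain leaves. Most of its proteins in yeast are encoded by a pair of paralogs, called A and B, left by an ancient duplication of the genome. Ribosomal protein genes are among the most highly transcribed genes of growing cells, and Rap1, Fhl1, Ifh1 and Sfp1 control them together with the TOR kinase pathway.

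Each of the 2 samples was a set of log ratios from two-colour arrays, where Cy3- and Cy5-labelled RNA compete for each spot. The first sample set an msg5 deletion strain against wild type BY4741, both without pheromone, grown for 2 h 30 min at 24 °C and collected 2 h later. The second set alpha factor treatment against no treatment, both in the msg5 deletion, grown for 4 h and collected after 90 min, so MSG5 was absent from both RNAs. MSG5 encodes a phosphatase of mitogen-activated protein kinases, and alpha factor is the mating pheromone that a cells sense. The labels give the pheromone concentration as 50 mM, a unit that could not be checked, and do not say how many clones of the deletion were used. Every value condenses 4 arrays from 2 biological samples with swapped dyes, so 1 number per gene and comparison was available, without a replicate spread and hence without a test. The number of arrays limits the precision, and the values show neither how abundant a transcript was nor how bright a spot.

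MSG5 had a log2 ratio of -2.51 in the deletion sample. With alpha factor it had -0.09, which checks nothing. FIG1, a mating gene that pheromone induces, stood at 2.38 with alpha factor, which together with the channel layout makes treated over untreated the likely direction of that sample. Each of the 5308 deletion values equals the base 2 logarithm of a ratio given to 0.001, within 5.5e-05, whereas 11.9% would fit as natural logarithms and 22.5% as base 10 logarithms. The alpha factor values showed no such grid (7.98% at base 2, 11.0% as natural logarithms and 26.8% at base 10), so folds given for them hold only if their base is 2. Of the control features, Arabidopsis read 0.19 for the deletion and 0.12 for alpha factor, while 3XSSC read -0.01 and 0.22. Genes matched by more than 1 feature give only a rough view of single-gene error. Such features can carry different systematic names, so they need not be repeat spots of the same probe. The range over features of 1 gene had a median of 0.20 and a maximum of 0.61 (25 genes) for the deletion. For alpha factor these were 0.29 and 0.68 (24 genes).

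In the msg5 deletion the 60S protein genes stayed close to wild type as a group, and RPL26B lay farthest away at -0.87, which is 1.83-fold lower in the deletion. The members had a median log2 ratio of -0.03 and quartiles of -0.13 and 0.05, against a median of -0.07 and quartiles of -0.22 and 0.07 for the 5230 other features. The mean was -0.06 for the members and -0.06 for the other features. At 1.5-fold, none of the 78 members was higher and 1, RPL26B, was lower, where 2.84% and 3.22% of all features passed. At a log2 ratio of 0.32 or beyond, the smaller of the 2 thresholds used, none was higher and 5 were lower, or 6.41%, where 6.97% and 14.1% of all features passed. With the column centred on its median, 3 were lower by that much. Of the members, 14.1% lay at or above the upper quartile of all features and 12.8% at or below the lower quartile, where 25.2% of all features lie on each side. Values above 0 were found for 32 members, or 41.0%, against 36.7% of all features. The SD over members was 0.17, and over the other features 0.31.

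With alpha factor the 60S protein genes lay slightly higher than other features, in a direction that is likely rather than certain. RPL42B, RPL34B, RPL18B and RPP1B stood highest at 0.43, 0.42, 0.42 and 0.40, and RPL43B, RPL25 and RPL6A lowest at -0.33, -0.31 and -0.27. The median over 79 members was 0.13 with quartiles of -0.04 and 0.21, against a median of -0.05 and quartiles of -0.21 and 0.10 for the 4798 other features. The medians were 0.18 apart. No member reached 1.5-fold in either direction, where 1.8% of all features were that much higher and 3.32% that much lower. At 0.32 in log2, 7 members were higher and 1 was lower, or 8.86% and 1.27%, where 6.77% and 12.9% of all features passed. Centring the column on its median made these counts 12 and 0. Small values in many members made up the distance. Of the members, 45 (57.0%) lay at or above the upper quartile of all features and 3 (3.80%) at or below the lower one, where 25% of all features lie on each side. Values above 0 were found for 55 members, or 69.6%, against 41.6% of all features, and below 0 for 24 members, against 58.4% of all features.

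**Figure D1:**
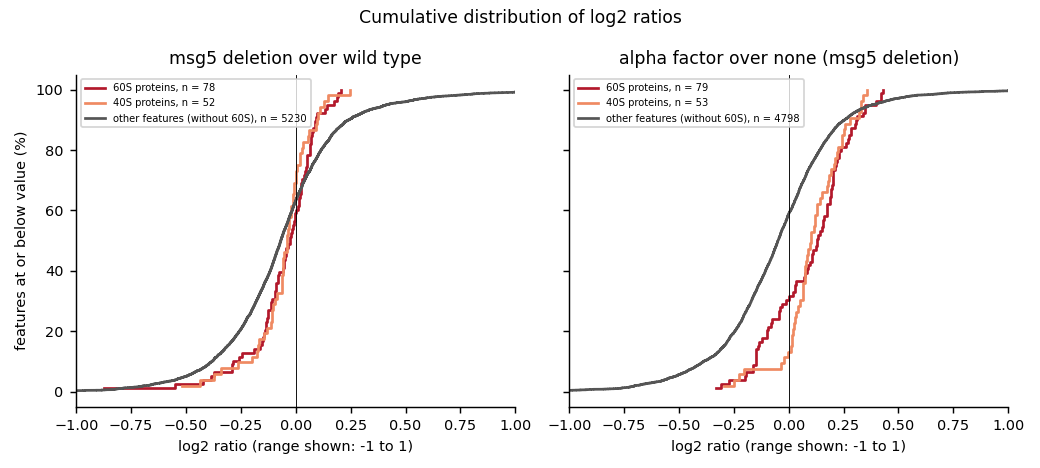
Cumulative share of features (y axis, percent) at or below each log2 ratio (x axis) in the msg5 deletion over wild type (left) and alpha factor over none in the deletion (right), for 60S protein genes, 40S protein genes and all features other than 60S genes. The 60S curve crosses the curve of the other features in the left panel (medians -0.03 and -0.07) and runs to the right of most of it in the right panel (medians 0.13 and -0.05).

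Gene span went with the alpha factor values, and its part in this distance was not tested. Span here is the genomic length in the R64 table, introns included, and its match to the build behind the arrays is unknown. Across the 4543 other features with a span, Spearman's rho between span and value was -0.22, and across the 79 members it was -0.17. These correlations run over genes of the same arrays, which share hybridisations and are not independent. The members are short, with a median span of 815 bp against 1218 bp for the other features. With all 79 members kept and the other genes limited to the shortest, of up to 936 bp, the distance between the medians was 0.10 instead of 0.18. That limit was not set on the members, so their lengths were not matched. With other genes limited to the span of the members, 78 to 1662 bp, the distance was 0.17. The 27 shortest members, of 78 to 682 bp, had a median of 0.16, against 0.05 for 925 other features in that range. The 26 members of 690 to 872 bp had a median of 0.14, against 0.01 for 434 others. For the 26 members of 885 to 1662 bp it was 0.02, against -0.10 for 1715 others. Members lay above other features in each class of span, and both levels were lowest in the longest class. In the deletion comparison rho was 0.09 over the members and 0.04 over the other features.

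**Figure D2:**
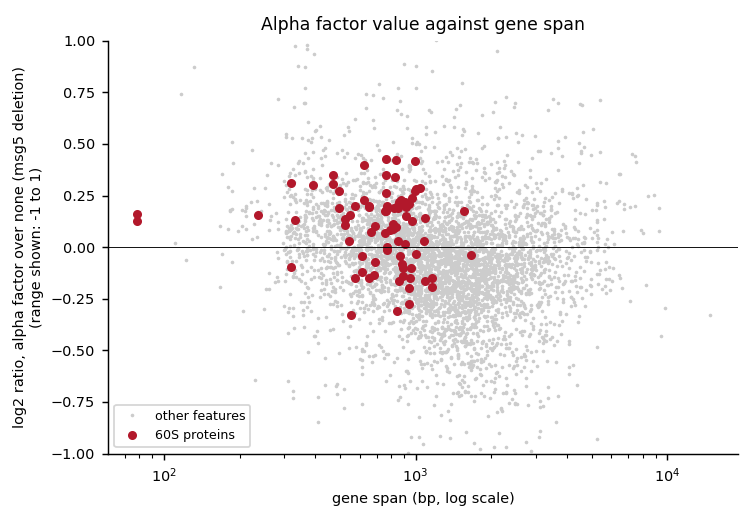
Log2 ratio with alpha factor over none in the msg5 deletion (y axis, shown from -1 to 1) against gene span in bp (x axis, log scale) for 60S protein genes (red) and other features (grey). Both clouds slope downward, with rho of -0.17 over the members and -0.22 over the other features.

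The P stalk is the flexible arm of the large subunit that recruits the GTPases of translation. RPP0 anchors it to the ribosomal RNA beside Rpl12, and RPP1A, RPP1B, RPP2A and RPP2B encode the acidic proteins bound to RPP0. In the deletion the stalk genes lay from -0.24 for RPP0 to 0.14 for RPP1A, the only one of 7 above 0. Of all members 41.0% were above 0 in the deletion, and of all features 36.7%. RPL12A and RPL12B stood at -0.08 and -0.13, RPP1B at -0.00, RPP2A at -0.05 and RPP2B at -0.01. With alpha factor 6 of the 7 were above 0 and beyond the upper quartile of all features. Of all members 69.6% were above 0 and 57.0% at or above that quartile, and of all features 41.6% and 25%. RPP1B (0.40) and RPP1A (0.31) led, followed by RPL12A (0.27), RPP0 (0.21), RPL12B (0.19) and RPP2B (0.13), while RPP2A was at -0.10. The stalk median was 0.21, against 0.13 for all members.

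RPL5, RPL11A and RPL11B encode the proteins that travel with 5S ribosomal RNA as a particle before it joins the subunit. RPL11B was among the lowest members in the deletion, at -0.38, whereas RPL11A stood at -0.05 and RPL5 at 0.07. With alpha factor RPL11A and RPL11B were at 0.13 and 0.11, and RPL5 at -0.14. The single-copy gene and the pair thus lay on opposite sides of 0 in both comparisons.

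Around the mouth and wall of the exit tunnel, where chaperones and targeting factors meet the new chain, the copies of RPL26 and of RPL31 lay far apart. RPL26B (-0.87) and RPL31B (-0.55) were the lowest members in the deletion, while their paralogs RPL26A and RPL31A stood at 0.07 and 0.05. Rpl31 is a contact of the ribosome-associated chaperone complex. RPL17A and RPL17B were at 0.05 and 0.19, RPL19A and RPL19B at -0.13 and 0.07, and RPL35A and RPL35B at -0.16 and -0.09. RPL25, whose protein binds the signal recognition particle at the tunnel exit, was at -0.01 and RPL39, whose small protein lines the tunnel, at -0.09. The 12 tunnel genes had an SD of 0.30 in the deletion, against 0.17 for all members, both with RPL26B included. Without RPL26B the tunnel SD was 0.19, and the SD of the members without it was not computed. With alpha factor their median was 0.03 and 8 (66.7%) were above 0, against 69.6% of all members and 41.6% of all features. RPL26A was highest at 0.34, with RPL17B and RPL17A at 0.23 and 0.22, and RPL35B at 0.20 and RPL31A at 0.18. RPL25 was lowest at -0.31, followed by RPL26B (-0.16), RPL19B (-0.15) and RPL31B (-0.07). RPL39, RPL19A and RPL35A each stood at 0.03.

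Genes for proteins that reach towards the peptidyl transferase centre varied least of these groups in the deletion (SD 0.06). RPL4A, RPL10, RPL2B, RPL3 and RPL4B lay between 0.02 and 0.08 there, and RPL2A at -0.09. Rpl4 lines the narrow part of the tunnel and Rpl10 joins late, in the cytoplasm. With alpha factor the same 6 genes had a median of -0.07, with RPL4B at 0.14, RPL10 at 0.08, RPL2A at 0.02, RPL3 at -0.15, RPL4A at -0.16 and RPL2B at -0.19. The copies of RPL2 and of RPL4 lay on opposite sides of 0 there. The tunnel group and this one both had lower medians with alpha factor than the members as a whole. Apart from RPL10, the 6 genes of this group span 912 to 1165 bp. The 26 members of 885 to 1662 bp had a median of 0.02, and the part of span was not tested.

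RPL40A and RPL40B encode a ribosomal protein made as a fusion to ubiquitin, which is cut off after synthesis. They stood at 0.01 and -0.29 in the deletion and at 0.19 and 0.07 with alpha factor. A list of genes dispensable for growth was drawn up here, and it is not complete. Its 8 measured genes had a median of -0.03 in the deletion. All 8 were above 0 with alpha factor, at a median of 0.16. Values above 0 there were found for 69.6% of all members and 41.6% of all features. The 8 genes span 78 to 755 bp, and the 27 shortest members, of 78 to 682 bp, also had a median of 0.16. Of these 8, RPL24A and RPL24B encode a protein of a bridge to the small subunit. They stood at 0.35 and 0.30 with alpha factor and at 0.04 and 0.03 in the deletion. RPL22A and RPL22B stood at 0.17 and 0.10, and RPL38 at 0.16. RPL41A and RPL41B, for the smallest protein of the ribosome, were at 0.16 and 0.13. In the deletion RPL38 was at 0.13, RPL22A at 0.09, RPL22B at -0.11, RPL41A at -0.14 and RPL41B at -0.15.

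Among the remaining members, RPL28, the single-copy gene also known as CYH2 for its cycloheximide resistance alleles, followed RPL26B and RPL31B in the deletion at -0.42, and stood at -0.10 with alpha factor. RPL14A was at -0.37 in the deletion and RPL14B was at -0.14, with 0.09 and 0.11 with alpha factor. RPL1B, for the protein of the L1 stalk, which moves spent transfer RNA out, was the highest member in the deletion at 0.20, and had 0.19 with alpha factor. RPL17B (0.19), RPL23A (0.19), RPL20B (0.17) and RPP1A (0.14) came next in the deletion, all short of 0.32. RPL42B led with alpha factor and was at 0.03 in the deletion. RPL34A and RPL34B stood at 0.26 and 0.42 with alpha factor and at -0.03 and -0.19 in the deletion. RPL18B had 0.42 with alpha factor and 0.06 in the deletion. RPL36A was at 0.35 with alpha factor and -0.14 in the deletion. RPL32 was at 0.30 with alpha factor and -0.00 in the deletion. RPL30, whose protein represses splicing of its own transcript, was at 0.16 with alpha factor and -0.09 in the deletion. The 10 measured single-copy genes had medians of -0.01 in the deletion and 0.05 with alpha factor.

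Several further pairs differed in how close their copies lay. RPL9A and RPL9B, for a protein near the base of the stalk, stood at -0.26 and -0.13 in the deletion and at -0.15 and 0.20 with alpha factor. RPL13A and RPL13B stood at -0.02 and -0.29 in the deletion and at 0.24 and -0.03 with alpha factor. RPL15A and RPL15B were both above 0 in the deletion (0.06 and 0.03) and both below it with alpha factor (-0.04 and -0.12). RPL37A and RPL37B, for a zinc-binding protein, lay at -0.06 and -0.11 in the deletion and at 0.23 and 0.20 with alpha factor. The copies of RPL27 (-0.02 and -0.14, then 0.12 and 0.08 with alpha factor) and RPL33 (-0.03 and 0.09, then 0.20 and 0.19) also lay close together. RPL21A and RPL21B stood at -0.08 and 0.01 in the deletion and at -0.04 and 0.22 with alpha factor. RPL8A and RPL8B, for a protein that binds kinked turns of ribosomal RNA, lay between -0.08 and 0.03 in the deletion and at -0.01 and 0.00 with alpha factor.

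**Figure D3:**
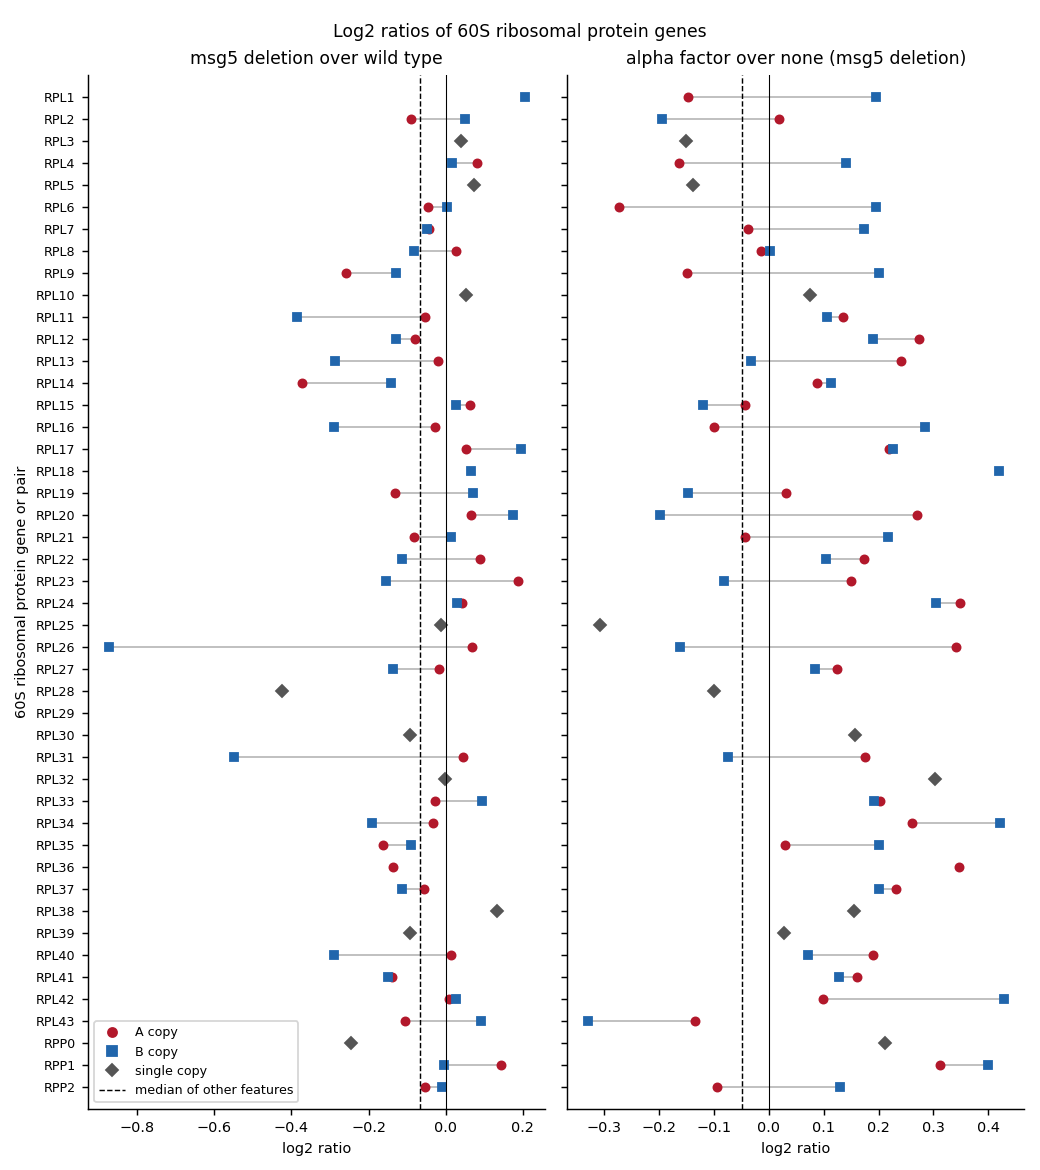
Log2 ratio (x axis; the panels have different ranges) of the measured 60S protein genes, 1 of them left out, in the msg5 deletion over wild type (left) and alpha factor over none in the deletion (right), 1 line per protein, with A copies as circles, B copies as squares and single-copy genes as diamonds. Points gather near the dashed median of the other features in the left panel apart from RPL26B (-0.87) and RPL31B (-0.55), and mostly to the right of it in the right panel.

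Members that adjoin on the chromosome were few. RPL13A and RPP1A face each other and stood at -0.02 and 0.14 in the deletion and at 0.24 and 0.31 with alpha factor. RPL24A and RPL30 point away from each other and stood at 0.04 and -0.09 in the deletion and at 0.35 and 0.16 with alpha factor. All 4 genes lay above 0 with alpha factor, as did 55 of the 79 members.

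The paralogs were set against each other as A minus B. In the deletion A was higher in 20 of 33 pairs, with a median difference of 0.02, and medians of -0.03 for A and -0.08 for B. The mean difference was 0.08, and 0.05 without RPL26. RPL26 had by far the widest gap: A stood at 0.07 and B at -0.87, a difference of 0.94 or 1.92-fold, which is beyond the largest difference between features of the same gene (0.61). RPL31 followed with A at 0.05 and B at -0.55, a difference of 0.59, which is within that largest difference. RPL23, for a protein at the face that meets the small subunit, had A at 0.19 and B at -0.15, and RPL11 had A at -0.05 and B at -0.38. In all 4 pairs that differed by at least 0.32 A was the higher copy, and RPL40 (0.30) came next, also with A higher. The pairs with the smallest gaps were RPL7 (-0.04 and -0.05), RPL41 (-0.14 and -0.15) and RPL24 (0.04 and 0.03). RPL14, with A at -0.37 and B at -0.14, had the widest gap in the other direction.

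With alpha factor A was higher in 18 of 34 pairs, with a median difference of 0.02 and a mean of -0.02. RPL26 again had the widest gap, with A at 0.34 and B at -0.16. This difference of 0.50 is within the largest difference between features of the same gene (0.68). RPL20 was next among pairs with A higher, at 0.27 and -0.20. In 5 pairs B was higher by at least 0.32. These were RPL6 (A at -0.27, B at 0.20), RPL16 (-0.10 and 0.29), RPL9 (-0.15 and 0.20), RPL1 (-0.15 and 0.19) and RPL42 (0.10 and 0.43). The smallest gaps were those of RPL17 (0.22 and 0.23), RPL33 (0.20 and 0.19) and RPL8 (-0.01 and 0.00). A and B lay on opposite sides of 0 in 16 of the 34 pairs, and in 13 of 33 in the deletion. Over all members 69.6% were above 0 with alpha factor and 41.0% in the deletion, so unrelated members can also fall on opposite sides. How often they do was not computed.

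The gaps between copies of a protein were set beside those between unrelated members. The absolute difference between A and B had a median of 0.12 in the deletion and 0.18 with alpha factor, against 0.13 and 0.18 over all combinations of members of different proteins (2970 and 3047). Differences of at least 0.32 were found in 12.1% of pairs in the deletion and 20.6% with alpha factor, against 14.0% and 22.8% of those combinations. Features of the same gene differed that much in 7 of 25 genes in the deletion and 12 of 24 with alpha factor. Across pairs, Pearson's r between A and B was -0.03 in the deletion (33 pairs) and 0.13 with alpha factor (34 pairs), as a description, since all pairs share the same arrays. Near-identical copies can bind each other's spots, which would draw their values together. Probe sequences were not used here, so the part of such shared signal was not tested.

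**Figure D4:**
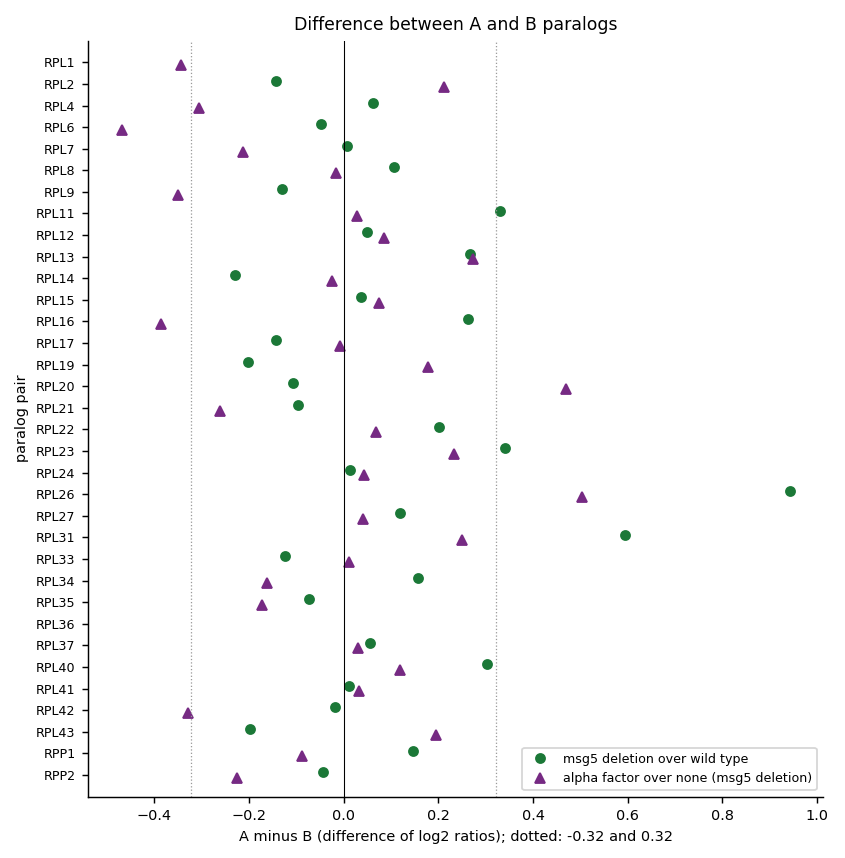
Difference between A and B copies (x axis, A minus B in log2 ratio) for each pair (y axis), 1 of them left out, in the msg5 deletion over wild type (circles) and alpha factor over none in the deletion (triangles), with dotted lines at -0.32 and 0.32. RPL26 lies farthest to the right in both comparisons, at 0.94 and 0.50, and most other pairs lie between the dotted lines.

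The comparisons drew on cultures with different growth and collection times. Of the 78 members with both values, 33 were below 0 in the deletion and above 0 with alpha factor, and 10 the reverse. Another 22 were above 0 in both and 13 below 0 in both. The share of other features in each of these quadrants was not computed. Over all features, 63% were below 0 in the deletion and 41.6% above 0 with alpha factor. For the members these were 46 of 78 and 55 of 79, so the quadrant counts are not read as a joint pattern. Pearson's r over the 78 members was 0.17 and Spearman's rho 0.13, against 0.19 and 0.11 over 4540 other features. These are descriptions over genes that share arrays. The deletion value minus the alpha factor value had a median of -0.19 over the members, against -0.01 over the other features. It was below 0 for 61 members (78.2%) against 51.3% of the others. Over 52 genes of the 40S subunit, counted among the others, its median was also -0.19, and 45 (86.5%) were below 0. Among the members it was lowest for RPL26B (-0.71), RPL34B (-0.61), RPL16B (-0.58), RPL11B (-0.49) and RPL36A (-0.48). It was highest for RPL43B (0.42), RPL20B (0.37), RPL25 (0.30), RPL2B (0.25) and RPL4A (0.24). RPL43B, for a small zinc-binding protein, had 0.09 in the deletion and -0.33 with alpha factor, and RPL16B had -0.29 and 0.29. Among 33 pairs, A was higher in both comparisons in 13 and B in both in 8, and the order of the copies changed in the other 12 (7 with A higher in the deletion, 5 with B).

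**Figure D5:**
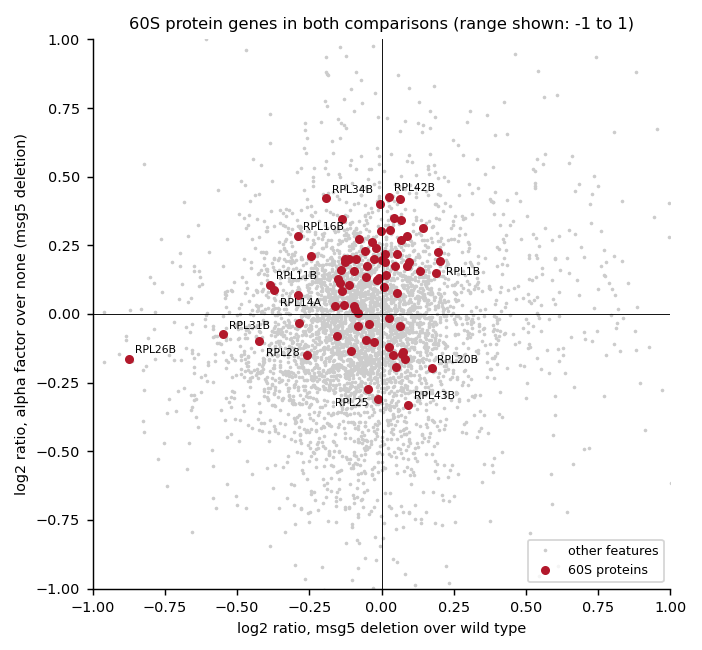
Log2 ratio with alpha factor over none in the msg5 deletion (y axis) against log2 ratio of the msg5 deletion over wild type (x axis), both shown from -1 to 1, for 60S protein genes (red) and other features (grey). The upper left quadrant holds 33 of the 78 members, and the share of other features there was not computed. RPL26B lies farthest left among the members.

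Genes for proteins of the small (40S) subunit lay near those of the large one. Their median was -0.04 over 52 genes in the deletion and 0.10 over 53 with alpha factor, against -0.03 and 0.13 for the 60S members. None of them passed 1.5-fold in either comparison, where 2.84% of all features were higher and 3.22% lower in the deletion, and 1.8% and 3.32% with alpha factor. With alpha factor 5 of the 53 (9.43%) were higher by 0.32 or more and none lower, where 6.77% and 12.9% of all features passed. Of these 53, 46 (86.8%) were above 0 with alpha factor, against 69.6% of the 60S members and 41.6% of all features. The lowest in the deletion, RPS12, stood at -0.52, short of RPL26B and RPL31B. Genes of the mitochondrial large subunit, a separate ribosome, had medians of -0.10 (30 genes) and 0.02 (33 genes).

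Genes that assemble the 60S proteins into ribosomes had lower medians than the members in both comparisons (-0.36 for dedicated chaperones and stalk assembly and -0.23 for late maturation in the deletion, -0.05 and -0.03 with alpha factor). Of 7 dedicated chaperones and stalk assembly factors, all were below 0 in the deletion and 4 were lower by at least 0.32: ACL4, which guards Rpl4, at -0.54, MRT4, a placeholder for RPP0 in the stalk, at -0.45, RRB1, of Rpl3, at -0.39, and BCP1, of Rpl23, at -0.36. Over all features 63% lay below 0 in the deletion and 14.1% were lower by at least 0.32. SYO1, which imports Rpl5 and Rpl11, stood at -0.10, SQT1, of Rpl10, at -0.09 and YVH1, a phosphatase that releases Mrt4, at -0.10. The clients of ACL4 and RRB1, RPL4A, RPL4B and RPL3, were at 0.08, 0.02 and 0.04. Those of BCP1, RPL23A and RPL23B, were at 0.19 and -0.15, and RPP0, whose place MRT4 holds, was at -0.24. Of 10 late maturation and export factors 4 were lower by at least 0.32 and none higher (14.1% and 6.97% of all features): SDO1 (-0.49), NMD3 (-0.43), the export adaptor, REI1 (-0.38) and RLP24 (-0.32), a placeholder for Rpl24. With alpha factor ACL4 was the only one of the chaperones lower by that much (-0.39), and REI1 the only maturation factor higher (0.49), with RLP24 at 0.30.

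Among the regulators none of 7 measured genes passed 0.32 in the deletion, where 6.97% of all features were higher and 14.1% lower by that much. RAP1 stood at -0.28 there, HMO1 at -0.19, FHL1 at -0.10, SCH9 at 0.19 and TOR1 at 0.20. With alpha factor 3 of 8 were lower by that much and none higher, where 12.9% and 6.77% of all features were. These were RAP1 (-0.71) and SFP1 (-0.65), activators of ribosomal protein genes, and IFH1 (-0.43), the coactivator bound through Fhl1. FHL1 stood at -0.04, CRF1, a corepressor, at -0.01, HMO1 at 0.01 and TOR1 at 0.20. The medians with alpha factor were -0.05 over the regulators and 0.13 over the members.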

How the data were processed

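Each of the 2 samples held 1 condensed value per feature. Per the labels, arrays were segmented with GenePix Pro 5.0, and the authors condensed 4 arrays with swapped dyes into each deposited log2 ratio (base 2 inferred from the deletion values, assumed for alpha factor). Nothing in the labels or the table states the normalization, filters or build. Depth does not apply. 14.5% and 21.4% of gene features had no value.

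Features were matched to the R64 RefSeq gene table by locus tag (5654) or an older name (57), and 496 stayed unnamed. Members, groups by role and other lists were chosen with earlier results of these data known. Without replicate values no test was made. Members are described by counts at 1.5-fold and at a log2 ratio of 0.32 beside all features, by medians, and by A minus B. Named genes were the 5 highest and lowest members per comparison, the pairs with the widest and narrowest gaps, the members that differed most between comparisons, and the fixed groups by role; the further pairs in the report, such as RPL15 and RPL27, fall outside this rule and were added after their values were seen. Calculations used Python 3.11.15 and pandas 2.3.3, and were tested on simulated shifts. Promoter and protein sequences were not used here. The values of 1 member are not reported here, though the counts and medians include it.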

Additional observations from a re-analysis of the deposited data

How the results depend on the processing

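With 1 condensed value per gene no replicate could be left out, and medians within 0.05 in log2 and counts within 1.5 times were taken as unmoved. No paired analysis was possible because each comparison had 1 value per feature. Of 71 results under alternatives, 52 did not move. Distances are medians of members minus other features. The count of 52 does not measure robustness, since centring a column cannot change a distance and some results were smaller than the 0.05 allowed. In the deletion the distance of 0.0402 was -0.0014 with means, and with alpha factor the median A minus B went from 0.0200 to -0.0200 on turning the sign. Both counted as unmoved. In the deletion, centring gave 3 in place of 5 members lower by 0.32 in log2, and the mean of A minus B was 0.075 in place of a median of 0.025. With alpha factor the distance of 0.18 became 0.10 for all members against the shortest other genes. It was 0.17 against other genes within the span of the members. Centring gave 12 in place of 7 members higher by 0.32 and 0 in place of 1 lower. Natural logarithms would make the distance 0.26, with 3 members higher by 1.5-fold, 18 higher by 0.32 and 3 lower. Base 10 would make it 0.59, with 30 higher and 5 lower by 1.5-fold, and 46 higher and 16 lower by 0.32. Turning the sign would make it -0.18, with 1 higher and 7 lower by 0.32, and the difference between the comparisons 0.17 in place of -0.18. The mean of A minus B with alpha factor was -0.034 without RPL26, an alternative chosen after seeing the data. The alternative on pairs with different proteins was not run. Signal over background was not used here, so values of dim spots cannot be set apart.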
